A study of Mus musculus with 12 samples.

Results

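Myc, its partner Max and the repressors that compete with it for Max were followed in 12 RNA-seq libraries of immature mouse thymocytes with and without the zinc finger factors Zfp148 and Zfp281. The 8 genes described, Myc, Mycn, Max, Mxd1, Mxd3, Mxd4, Mxi1 and Mnt, were taken by gene symbol from the 53656 gene rows, all 8 were present, and all 8 were among the 13383 genes that passed the filter on low counts. Thymus cells were sorted as immature CD4 cells (ImCD4; CD69+, CD44low, H2-Kb-, CD4+CD8-) or immature CD8 cells (ImCD8; CD69+, CD44low, TCRb+, CD8+CD4-). Every library came from mice with Zfp148 fl/fl and Zfp281 fl/fl alleles. The double knockout (dKO) libraries add Cd4-Cre, a recombinase driven by Cd4 regulatory DNA that acts from the CD4+CD8+ stage of thymocytes onward, and the control libraries lack it, so that an effect of Cre itself and the loss of the zinc finger genes cannot be told apart. Each of the 4 groups holds 3 libraries. The labels do not say that these are separate animals, and p-values measure only the spread between libraries.

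Groups follow the titles. In ImCD8 the genotype entry runs the other way, with Cre noted for the libraries titled control and its absence for those titled dKO. Zfp281, 1 of the deleted genes, stood at 441 to 562 CPM in the control libraries of ImCD4 against 16.2 to 21.4 CPM in dKO, and at 112 to 128 CPM in the libraries titled control ImCD8 against 10.2 to 14.9 CPM in those titled dKO ImCD8. Zfp148 stood at 162 to 182 CPM in the 6 libraries titled control and 45.6 to 68.9 CPM in the 6 titled dKO. Both levels go with the titles, and all ImCD8 directions below rest on them. Lineage markers went with the sort: Cd4, Zbtb7b, Cd40lg and Gata3 summed to 1957 to 2381 CPM in ImCD4 and 50.9 to 93.7 CPM in ImCD8, and Cd8a, Cd8b1, Runx3 and Itgae to 121 to 294 CPM in ImCD4 and 4514 to 4792 CPM in ImCD8. In ImCD8 the CD4 lineage sum ran from 50.9 to 65.2 CPM in control and from 72.3 to 93.7 CPM in dKO libraries. Libraries held 7315833 to 10943143 counts in genes. Replicate 3 of every group stood apart on the third principal component (5.31% of the variance), and several results below are also given with all 4 of these libraries left out.

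Myc is a transcription factor that binds DNA as a dimer with Max, at E-boxes such as CACGTG, and raises genes for ribosome assembly, nucleotide and amino acid supply, glycolysis and entry into the cell cycle. Mycn is its close relative, prominent in early progenitors. Mxd1, Mxd3, Mxd4, Mxi1 and Mnt also pair with Max, but recruit Sin3 and histone deacetylase complexes, so that what a shared target receives depends on which partner holds Max. In thymocytes Myc is known for driving proliferation of early precursors and falls as cells become quiescent, and in mature T cells it is induced by antigen receptor signals and carries the metabolic switch of activation.

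Levels are given as CPM, read counts relative to library size, scaled by TMM factors that correct for differences in RNA composition between libraries. Levels of different genes are compared only as CPM per kilobase of annotated exon. A gene is called where the edgeR quasi-likelihood test, fitted on all 12 libraries and 13383 genes, gave a Benjamini-Hochberg adjusted p under 0.05. In a sorted bulk sample, fewer cells carrying a transcript and less transcript per cell cannot be told apart.

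Myc (ENSMUSG00000022346.15; mm10 chr15:61985391-61990374, plus strand) was the member with the clearest difference between genotypes. In ImCD4, Myc stood at 101, 110 and 116 CPM in the control libraries and at 165, 181 and 201 CPM in the dKO libraries. Every dKO library was above every control library, and groups were apart in either direction for 33.8% of all genes tested in this comparison. The SD was 7.38 CPM in control and 18.0 CPM in dKO libraries, around means of 109 and 182 CPM. Myc rose by 0.74 ± 0.17 (SE) on the log2 scale, 1.68-fold, with a 95% interval of 0.37 to 1.12 and an edgeR adjusted p of 0.0138 (higher in 3 of 3 dKO libraries than in all controls). The exact two-sided permutation test on the 6 libraries gave p = 0.1, the smallest that 3 against 3 can give. Of 15 alternative settings 13 kept the call. It was lost without control ImCD4 replicate 1 (adjusted p = 0.0581) and without dKO ImCD4 replicate 3 (adjusted p = 0.0522), while the size stayed between 0.67 and 0.82. With replicate 3 left out of every group Myc differed by 0.72 (adjusted p = 2.83e-05).

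Several library measures moved with genotype in ImCD4, and their part in the Myc result was not tested. Counts in genes ran from 8276742 to 9173424 in control and from 9319732 to 10943143 in dKO ImCD4, and the share of reads in no annotated feature from 13.6% to 16.4% and from 10.5% to 12.9%. Of the 4 tested gamma-delta and innate-like markers 3 rose, Sox13, Il2rb and Tcrg-C1. The whole list of 6 had sums of 61.9 to 70.4 CPM (control) and 265 to 370 CPM (dKO), with Klrb1c at 0 in all dKO ImCD4 libraries. Of 10 markers of dividing cells 2 rose, Mcm2 by 0.38 and Mcm5 by 0.30, and the sum of the 10 ran from 317 to 330 CPM in control and from 389 to 418 CPM in dKO libraries. The other 8 did not pass the test. Of 6 tested markers of earlier thymocytes, 1 rose, Dntt, and the sums of the list overlapped at 159 to 195 and 174 to 222 CPM. These counts of called markers stand beside 13.4% of all genes called in ImCD4, 7.26% higher and 6.16% lower.

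In ImCD8 the levels of Myc were 188, 211 and 259 CPM in control and 220, 219 and 341 CPM in dKO libraries. The groups overlapped, and replicate 3 was the highest library in both. The difference of 0.25 ± 0.17 did not pass the test (edgeR adjusted p = 0.487), and its 95% interval ran from -0.12 to 0.61. Without dKO ImCD8 replicate 3 it was 0.00. The markers of earlier thymocytes were apart by genotype in ImCD8. Their sums reached at most 138 CPM among the controls (lowest 109) and at least 165 CPM among the dKO libraries (highest 201). Of the 6 tested, 1 was called higher, where 6.14% of all genes were called. Dntt held 91.0 CPM or more in each dKO library, above the control maximum of 50.8 CPM. The part of these markers in the ImCD8 results was not tested.

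The dKO effect on Myc was larger in ImCD4 than in ImCD8 by 0.50 ± 0.24 on the log2 scale, with a 95% interval of -0.02 to 1.02, and this difference did not pass the test (edgeR adjusted p = 0.518). It passed in both settings that were added for replicate 3 after the data were seen: at 0.57 with replicate 3 of each group left out (adjusted p = 0.0342) and at 0.51 with a model term for it (adjusted p = 0.0486). Of all genes 0.433% were called for such a difference, and none of the 8 members was, by edgeR, DESeq2 or limma-voom, with none at an unadjusted p under 0.05.

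**Figure D1:**
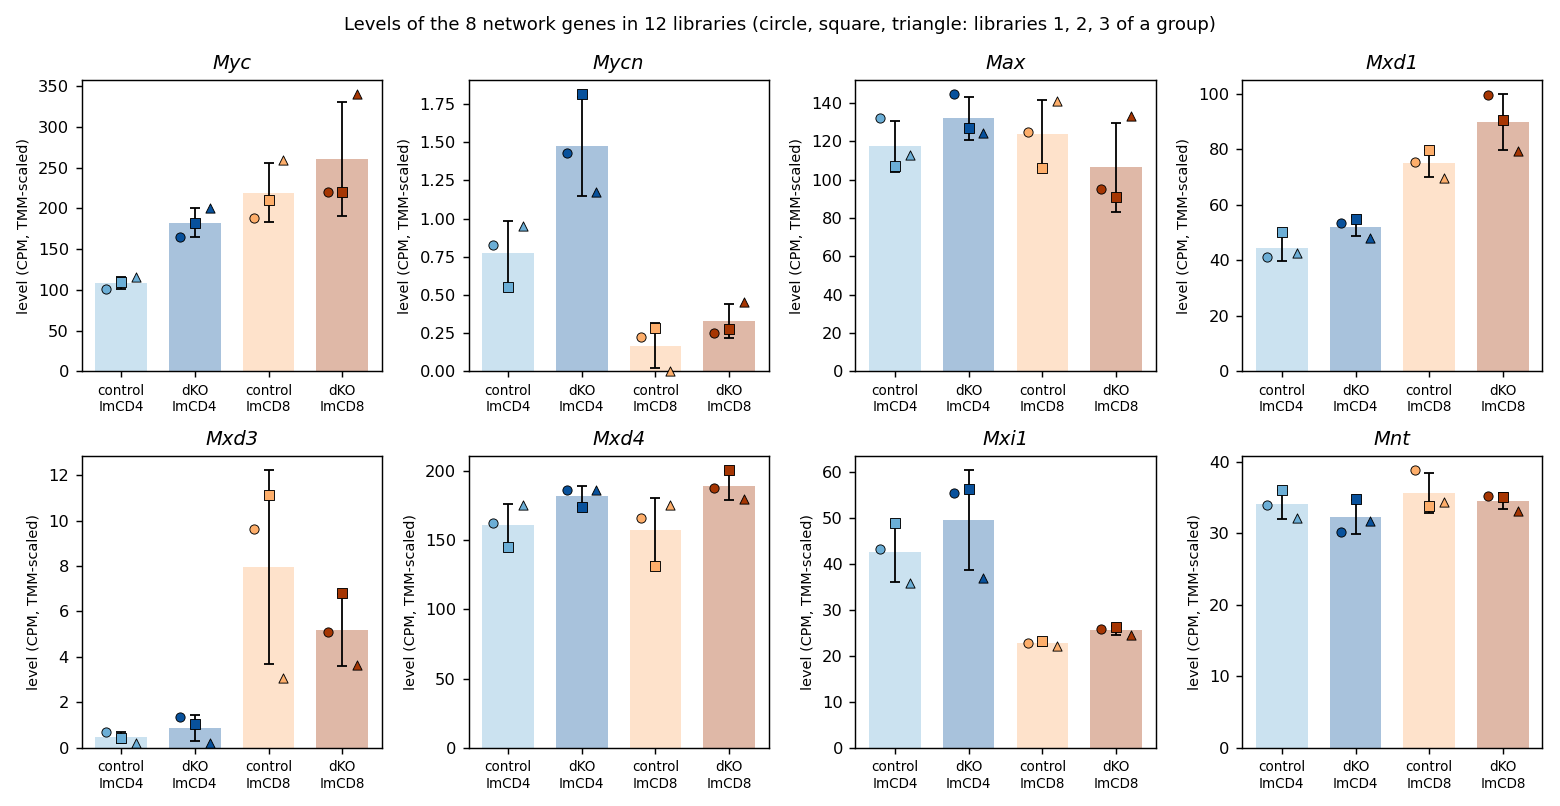
Level of each of the 8 network genes in every library (CPM, linear axes from 0), by group, with bars for group means and error bars for the SD of 3 libraries; circle, square and triangle mark replicates 1, 2 and 3. Myc separates the ImCD4 genotypes without overlap (101 to 116 against 165 to 201 CPM), and its triangle is the highest point in all 4 groups.

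The populations differed in Myc as well. In control cells Myc was higher in ImCD8 by 1.01 ± 0.17, 2.02-fold (edgeR adjusted p = 0.000465), and in dKO cells by 0.51 ± 0.17, 1.43-fold (adjusted p = 0.0263). No ImCD4 library reached the lowest ImCD8 library of its genotype, and such a gap held for 56.4% of all genes in control and 51.8% in dKO cells. The dKO call was lost without dKO ImCD4 replicate 1 (adjusted p = 0.0927), without dKO ImCD4 replicate 2 (0.0708) and without dKO ImCD8 replicate 3, where the difference fell to 0.27 (0.0811). With replicate 3 left out of every group it was 0.35 and called (adjusted p = 0.00351). In the order of group means, dKO ImCD8, control ImCD8 and dKO ImCD4, at 260 ± 69.7, 219 ± 36.5 and 182 ± 18.0 CPM (SD, n = 3), each overlapped its neighbour, and only control ImCD4, at 109 ± 7.38 CPM, stood below its neighbour without overlap.

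Mycn (chr12:12936093-12941914, minus strand) was near the limit of detection. It had 7, 5 and 9 counts in control ImCD4, 16, 19 and 11 in dKO ImCD4, 2, 2 and 0 in control ImCD8, and 2, 3 and 4 in dKO ImCD8. In the same order the group means were 0.777 ± 0.205, 1.47 ± 0.324, 0.169 ± 0.149 and 0.328 ± 0.110 CPM (SD, n = 3). The ImCD4 genotypes did not overlap, as for 33.8% of all genes tested there. The difference of 0.92 ± 0.42 (95% interval 0.03 to 1.80) did not pass the test (edgeR adjusted p = 0.168). Mycn was lower in ImCD8 than in ImCD4, by -2.21 ± 0.66 in control (adjusted p = 0.0123) and by -2.13 ± 0.49 in dKO cells (adjusted p = 0.00228), which is opposite to Myc. The control call was lost without control ImCD8 replicate 3, the library with 0 counts (adjusted p = 0.0584, with a difference of -1.59), and with replicate 3 left out of every group (0.155, with -1.41).

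Max (chr12:76937269-76962201, minus strand), the shared partner, passed the test in none of the comparisons. Its levels were 132, 107 and 113 CPM in control ImCD4, 145, 127 and 124 CPM in dKO ImCD4, 125, 106 and 141 CPM in control ImCD8, and 95.3, 91.1 and 133 CPM in dKO ImCD8. No neighbouring pair in the order of group means was free of overlap. The dKO effect was 0.17 ± 0.14 in ImCD4 (95% interval -0.14 to 0.48) and -0.22 ± 0.14 in ImCD8 (-0.53 to 0.09), with edgeR adjusted p of 0.477 and 0.457. Between populations Max differed by 0.08 ± 0.14 in control cells (adjusted p = 0.666) and by -0.31 ± 0.14 in dKO cells (adjusted p = 0.0951). The latter was called in 5 of the alternative settings, among them without dKO ImCD8 replicate 3 (-0.50, adjusted p = 0.00294) and with replicate 3 left out of every group (-0.54, adjusted p = 0.000869).

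Among the repressors, Mxd1 (chr6:86647042-86669161, minus strand), known for its rise as cells stop dividing and differentiate, followed the same order of groups as Myc. It stood at 41.1, 50.1 and 42.7 CPM in control ImCD4 and 53.3, 54.7 and 48.2 CPM in dKO ImCD4, and at 75.3, 79.7 and 69.8 CPM in control ImCD8 and 99.7, 90.6 and 79.3 CPM in dKO ImCD8. All 6 ImCD8 libraries lay above all 6 ImCD4 libraries, while the genotypes overlapped within each population. Within a genotype, the populations were apart for 56.4% of all genes in control and 51.8% in dKO cells. Mxd1 was higher in ImCD8 by 0.75 ± 0.10 in control and 0.78 ± 0.10 in dKO cells (edgeR adjusted p = 1.80e-05 and 8.94e-06). The genotype differences of 0.22 ± 0.10 in ImCD4 and 0.26 ± 0.10 in ImCD8 did not pass (adjusted p = 0.161 and 0.135), although the latter did with a model term for replicate 3 (adjusted p = 0.0315).

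Mxd3 (chr13:55325168-55329823, minus strand), the member of the family that is known to be expressed in cells in S phase, had few counts in ImCD4. Its counts were 6, 4 and 2 in control ImCD4, 15, 11 and 2 in dKO ImCD4, 86, 79 and 29 in control ImCD8, and 40, 74 and 32 in dKO ImCD8. In CPM this is 0.212 to 0.707, 0.214 to 1.34, 3.08 to 11.1 and 3.64 to 6.81, so that all ImCD8 libraries lay above all ImCD4 libraries. Populations were apart for 56.4% of all genes in control and 51.8% in dKO cells. It was higher in ImCD8 by 4.10 ± 0.63 in control cells (edgeR adjusted p = 0.000146) and by 2.53 ± 0.55 in dKO cells (adjusted p = 0.00238). The genotype effects of 0.98 ± 0.83 in ImCD4 and -0.59 ± 0.44 in ImCD8 did not pass (adjusted p = 0.485 and 0.533). All 10 markers of dividing cells were also higher in ImCD8, in control and in dKO cells, with sums of 317 to 418 CPM in ImCD4 and 764 to 1035 CPM in ImCD8; their part in the Mxd3 result was not tested. Prelid1, at 185 to 252 CPM, overlaps Mxd3 on the other strand, and no source at hand gives the strand setting of the counting, so the assignment of reads between the pair is uncertain.

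Mxi1 (chr19:53310518-53375810, plus strand), also known as Mxd2, went the other way. Its levels were 43.2, 48.8 and 35.8 CPM in control ImCD4 and 55.3, 56.3 and 37.0 CPM in dKO ImCD4, and 22.9, 23.2 and 22.1 CPM in control ImCD8 and 25.8, 26.3 and 24.4 CPM in dKO ImCD8. All ImCD8 libraries lay below all ImCD4 libraries, where populations were apart for 56.4% of all genes in control and 51.8% in dKO cells. Mxi1 was lower in ImCD8 by -0.91 ± 0.15 in control and -0.96 ± 0.15 in dKO cells (edgeR adjusted p = 0.000152 and 7.51e-05). In ImCD8 the genotypes did not overlap, as for 21.8% of all genes tested there, but the difference of 0.17 ± 0.15 did not pass the test (adjusted p = 0.636). In ImCD4 it was 0.22 ± 0.14 (adjusted p = 0.336), and 0.39 and called without dKO ImCD4 replicate 3 (adjusted p = 0.0357). With replicate 3 left out of every group it was 0.28 and did not pass (adjusted p = 0.0846).

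Mxd4 (chr5:34173883-34187720, minus strand) held 162, 145 and 175 CPM in control ImCD4, 186, 174 and 186 CPM in dKO ImCD4, 166, 131 and 176 CPM in control ImCD8, and 187, 201 and 180 CPM in dKO ImCD8. The dKO libraries lay above the controls in ImCD8, where the genotypes were apart in either direction for 21.8% of all genes tested. In ImCD4 the dKO libraries overlapped the controls by 1 library. The difference of 0.26 ± 0.10 in ImCD8 (95% interval 0.06 to 0.47) did not pass the test (edgeR adjusted p = 0.136), nor did that of 0.18 ± 0.10 in ImCD4 (-0.03 to 0.39, adjusted p = 0.253). In ImCD8 it passed without a filter on low counts (adjusted p = 0.0189) and, at 0.38, with replicate 3 left out of every group (adjusted p = 0.0314). Between populations Mxd4 differed by -0.03 ± 0.10 in control and 0.06 ± 0.10 in dKO cells, neither of which passed.

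Mnt (chr11:74830920-74845725, plus strand), the repressor known to be present in both resting and dividing cells, ranged from 30.2 to 38.9 CPM over all 12 libraries. Its 4 group means lay between 32.3 ± 2.34 and 35.7 ± 2.79 CPM (SD, n = 3), and no neighbouring groups in that order were free of overlap. The dKO effects were -0.08 ± 0.09 in ImCD4 (95% interval -0.28 to 0.12) and -0.05 ± 0.09 in ImCD8 (-0.25 to 0.15). The differences between populations were 0.07 ± 0.09 and 0.10 ± 0.09, and no contrast passed the test (edgeR adjusted p of at least 0.437 in these 4). These intervals leave room for changes of up to 0.30 on the log2 scale.

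Taken by count, 1 of the 8 members was called between genotypes in ImCD4, where 13.4% of all genes tested were called (7.26% higher and 6.16% lower). In ImCD8 none of the 8 was called, against 6.14% of all genes tested (2.62% higher and 3.53% lower). There edgeR gave 2 members, Mxd1 and Mxd4, at an unadjusted p under 0.05, and DESeq2 and limma-voom called none. Between populations 5 of 8 were called in control cells, against 45.3% of all genes, and the same 5 in dKO cells, against 43.7%: Myc, Mxd1 and Mxd3 were higher in ImCD8, and Mycn and Mxi1 lower. Of all genes, 23.1% were called higher and 22.1% lower in ImCD8 in control cells, and 22.1% and 21.6% in dKO cells. The 1 of 8 in ImCD4 is close to the share of all genes called there. The median log2 fold change of the 8 members was 0.22 in ImCD4 and 0.21 in ImCD8 between genotypes, beside 0.02 and 0.01 over all genes. It was positive for 7 of the 8 in ImCD4 and 5 of the 8 in ImCD8. With replicate 3 left out of every group the medians were 0.26 and 0.12.

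**Figure D2:**
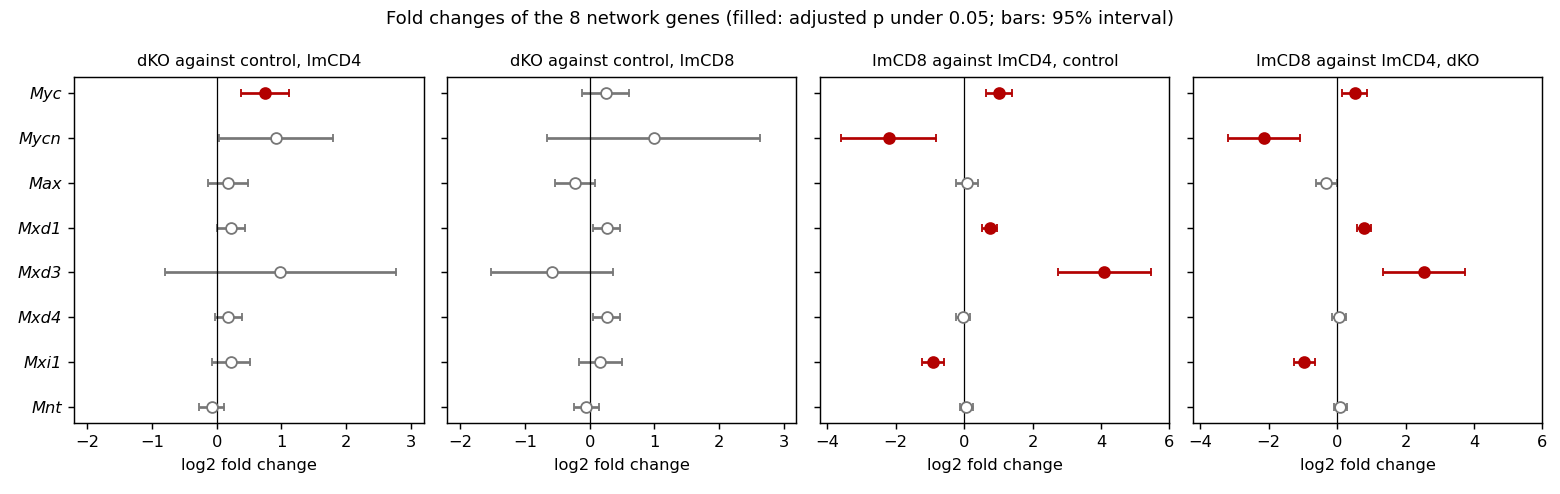
Log2 fold change of each network gene (x axis; vertical line at 0) in 4 contrasts, with 95% intervals from the edgeR fit; filled red points have an adjusted p under 0.05. Myc is the single filled point between genotypes (0.74 in ImCD4), and the same 5 genes are filled in both comparisons of populations.

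Set beside each other per length of exon, Myc was close to the sum of its competitors in control ImCD4 and above it in the other groups. This order rests on the lengths used, those of all annotated exons of a gene. They are 2.717 kb for Myc against 8.483 kb for Mxd4, 7.072 kb for Mxd1 and 6.823 kb for Mxi1. Before division by length, Mxd4 alone stood at 161 CPM against 109 CPM for Myc in control ImCD4, and at 158 against 219 CPM in control ImCD8. Which transcripts of each gene were present was not tested. Myc and Mycn together stood at 40.3 ± 2.73 CPM per kb (SD, n = 3) in control ImCD4 and 67.6 ± 6.58 in dKO ImCD4, and at 80.8 ± 13.4 in control and 95.9 ± 25.7 in dKO ImCD8. The summed repressors Mxd1, Mxd3, Mxd4, Mxi1 and Mnt stood at 39.1 ± 0.223, 43.4 ± 1.97, 43.6 ± 2.14 and 48.4 ± 3.24 CPM per kb in the same order. Max stood at 29.6 to 36.7 CPM per kb over the group means, below the sum of either class of partner. The share of Myc and Mycn in the sum of both classes was 49.0% to 52.4% in control ImCD4 libraries and 57.8% to 64.3% in dKO ImCD4 libraries, without overlap. In ImCD8 it was 60.1% to 69.2% in control and 61.4% to 73.7% in dKO libraries, which overlap.

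The makeup of the repressor class differed between populations. Mxd4 gave the largest part of it in every library, 36.7% to 53.4%. Mxd1 stood at 6.31 and 7.37 CPM per kb in control and dKO ImCD4 and at 10.6 and 12.7 CPM per kb in ImCD8, while Mxi1 stood at 6.25 and 7.26 CPM per kb in ImCD4 and at 3.33 and 3.74 CPM per kb in ImCD8. Mxd3 gave 0.191 and 0.367 CPM per kb in ImCD4 and 3.36 and 2.18 CPM per kb in ImCD8. Mnt stayed between 6.98 and 7.71 CPM per kb in the group means. These are transcript levels and carry no measure of protein or of dimers.

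**Figure D3:**
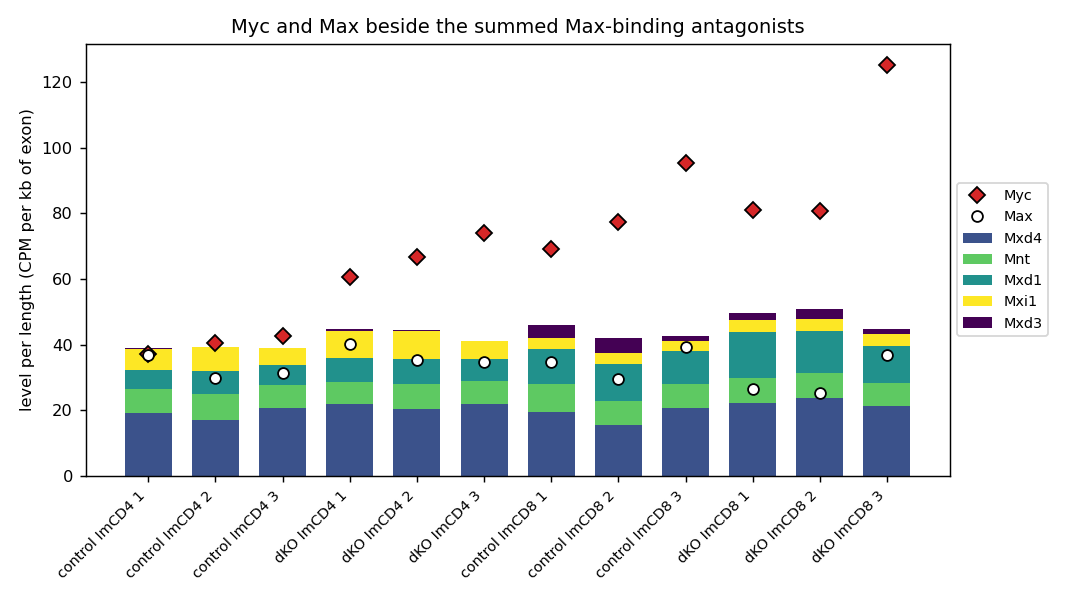
Level per kilobase of exon (CPM per kb, linear axis from 0) in each library: stacked bars give the 5 repressors that pair with Max, red diamonds Myc and open circles Max. Myc sits at the top of the bar in the 3 control ImCD4 libraries and above it in the other 9 libraries, and Mxi1 is thicker and Mxd1 thinner in ImCD4 than in ImCD8.

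Replicate 3, the library apart on the third component, held the highest Myc and the lowest Mxd3 and Mxi1 of its group in all 4 groups. Of all genes tested 7.22% were highest and 8.15% lowest in replicate 3 in all 4 groups.

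The members were also compared with each other and with all other genes by correlation across the 12 libraries. Pearson's r of log2 CPM was 0.89 between Mxd1 and Mxd3 and 0.86 between Mycn and Mxi1, and -0.74 between Mxd1 and Mxi1. Myc had an r of 0.76 with Mxd1 and 0.04 with Max. The 3 genes most like Myc among 10470 were Pgp (r = 0.98), a phosphatase that clears phosphoglycolate, Eci1 (0.97), an enzyme of mitochondrial fatty acid oxidation, and Nt5e (0.97), the surface nucleotidase CD73. The genes most like Mxd3 were Tk1, Pclaf and Kif4 (0.99 each), which are known in DNA synthesis and chromosome segregation, and those most like Mxd1 were Pgls, Tapbp and Fam234a (0.98 each). Those most like Mxi1 were Sh3bgrl (0.98), Sla (0.97), an adaptor that dampens T cell receptor signalling, and Ccdc71l (0.97). For Mycn they were Ammecr1 (0.98), Tstd2 (0.96) and Mfsd2a (0.94), at few counts of Mycn itself. For the members called in no comparison these values were lower: Fbxl2, Raly and Gdap2 for Max (0.82 each), Slc25a28, Mak16 and Stard5 for Mxd4 (0.85 to 0.86), and Trim23, Toe1 and Zfp414 for Mnt (0.77 to 0.84). The 12 points share 2 populations, 2 genotypes and the third component, and these values are descriptions over those libraries.

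Start sites of 7 members were found in the RefSeq promoter table (GRCm38.p6, 250 bases before to 50 after each start), with 9 promoters between them; Myc had no entry. They were searched for the E-box CACGTG, the word bound by dimers of Max, and for the G-rich word GGGAGGG on both strands, since Zfp148 and Zfp281 are known to bind G-rich DNA. The words do not overlap each other. The E-box was present in Max (starting 3 bases before the start site), Mxd4 (219 before) and Mnt (123 before), and in 7.15% of 32851 promoters. GGGAGGG or its complement CCCTCCC was present in Mycn, Mxd3 and 1 promoter of Mxi1, and in 22% of all promoters. The windows around the words in 4 members are shown 5′ to 3′ on the strand of the gene, to place the words beside the members they belong to, with the matched word in capitals: Max at chr12:76962219-76962278 (minus), Mxd4 at chr5:34187897-34187956 (minus), Mnt at chr11:74830774-74830833 (plus) and Mycn at chr12:12941903-12941963 (minus).
Max: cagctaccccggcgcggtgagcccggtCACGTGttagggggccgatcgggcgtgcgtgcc
Mxd4: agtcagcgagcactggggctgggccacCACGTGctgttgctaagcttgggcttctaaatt
Mnt: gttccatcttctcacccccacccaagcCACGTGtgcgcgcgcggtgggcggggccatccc
Mycn: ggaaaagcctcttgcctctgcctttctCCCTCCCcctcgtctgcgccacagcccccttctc
A match describes letters in these windows only, and binding was not measured here.

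In the wider network, Mga, Mlx and Mlxip, relatives that pair with Max or with Mlx and that passed the filter, were called in none of the 5 contrasts. Group means ran from 165 to 182 CPM for Mga, from 55.8 to 67.3 CPM for Mlx and from 70.4 to 80.8 CPM for Mlxip. Mycl had at most 6 counts per group and Mlxipl had 0 counts in all 12 libraries. With edgeR, 0 of the 3 had an unadjusted p under 0.05 between genotypes and 1 of 3 between populations in either genotype; limma-voom called 1 between populations in dKO cells and DESeq2 none.

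Among 13 genes that act on the stability of Myc protein, 2 fell in both populations. Gsk3b, the kinase whose phosphorylation of Myc marks it for the Fbxw7 ubiquitin ligase, stood at 211, 203 and 209 CPM in control and 124, 132 and 147 CPM in dKO ImCD4. It stood at 159, 151 and 159 CPM in control and 107, 106 and 117 CPM in dKO ImCD8, so that the genotypes were apart in both populations. Genotypes were apart for 33.8% of all genes tested in ImCD4 and 21.8% in ImCD8. Gsk3b fell by 0.63 on the log2 scale in ImCD4 and by 0.50 in ImCD8 (edgeR adjusted p = 3.16e-05 and 0.000394). Trim32, a ubiquitin ligase reported to act on Myc, stood at 53.6, 55.9 and 59.5 CPM in control and 32.1, 35.3 and 35.8 CPM in dKO ImCD4, and at 41.1, 46.2 and 41.9 CPM in control and 25.8, 25.5 and 21.6 CPM in dKO ImCD8. It fell by 0.71 in ImCD4 and by 0.82 in ImCD8 (adjusted p = 9.47e-05 and 5.69e-05). Both genes kept these calls in all 15 alternative settings of each contrast, and the difference of their effects between populations did not pass the test (-0.12 ± 0.10 for Gsk3b, 95% interval -0.34 to 0.09, and 0.11 ± 0.13 for Trim32, -0.17 to 0.39). Of the other 11 genes of the turnover list, Fbxo28 rose in ImCD4 by 0.32 (adjusted p = 0.0129), a call that was lost without control replicate 3 or dKO replicate 2 (highest adjusted p 0.0703), and the remaining 10 were not called between genotypes, Fbxw7 among them. The list thus gave 3 calls of 13 in ImCD4, where 13.4% of all genes were called, and 2 of 13 in ImCD8, where 6.14% were. The median of the 13 was -0.05 in ImCD4 and -0.07 in ImCD8, beside 0.02 and 0.01 over all genes.

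Of 14 cofactors of Myc, 1 was called between genotypes in ImCD4, Ruvbl2, an ATPase of chromatin remodelling complexes (0.27 ± 0.08, edgeR adjusted p = 0.0324), a call lost in 8 of 15 alternative settings, among them the omission of each ImCD4 library except dKO replicate 1 and that of replicate 3 from every group. None was called in ImCD8, where 2 had an unadjusted p under 0.05 and DESeq2 and limma-voom called none. Of 10 Sin3 and NCoR corepressor genes none was called in ImCD4 (2 at an unadjusted p under 0.05, DESeq2 0, limma-voom 1) and 1 in ImCD8, Hdac2 (-0.33 ± 0.08, adjusted p = 0.0165), a call lost in 5 of 15 settings, among them without control replicate 2, dKO replicate 1 or dKO replicate 3, and with replicate 3 left out of every group. Over all genes the shares called were 13.4% in ImCD4 and 6.14% in ImCD8.

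Genes known as Myc targets were counted in lists by function. In ImCD4, where 13.4% of all genes were called (7.26% higher and 6.16% lower), 5 of 29 ribosome biogenesis genes rose and none fell. Ncl, the abundant nucleolar protein nucleolin, held 604, 628 and 617 CPM in control and 746, 779 and 773 CPM in dKO libraries (0.31 ± 0.07, edgeR adjusted p = 0.00690). The other called genes named by smallest p were Bysl (0.35 ± 0.08), Nop2 (0.39 ± 0.09) and Dkc1 (0.35 ± 0.09), which act in assembly or modification of ribosomal RNA. Of the 29, 27 had a positive fold change, with a median of 0.19 beside 0.02 over all genes. The number called was 3 without control replicate 1, 2 without control replicate 2, 3 without dKO replicate 3, and 10 with a model term for replicate 3, and it was 5 with replicate 3 left out of every group.

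Of 21 genes of polyamine and nucleotide supply 9 rose and 2 fell in ImCD4, against 13.4% of all genes called. Impdh2, which commits IMP to guanine nucleotides, held 54.9, 58.0 and 62.0 CPM in control and 76.2, 73.0 and 80.7 CPM in dKO libraries (0.39 ± 0.07, adjusted p = 0.00186). The mitochondrial folate enzymes Mthfd1l and Mthfd2 rose by 0.43 ± 0.08 and 0.55 ± 0.11. Prps2, which makes the ribose donor of nucleotide synthesis and is a textbook Myc target, fell instead, from 156, 157 and 181 CPM to 98.1, 103 and 104 CPM (-0.69 ± 0.07, adjusted p = 1.69e-05). The number higher was 5 without control replicate 1, and 6 higher with 1 lower when replicate 3 was left out of every group. The fall of 1 of the 2, Ppat, was not called without control replicate 2 or 3 or without dKO replicate 1 or 2.

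Of 15 transporter and glycolysis genes 7 rose and 2 fell in ImCD4, against 13.4% of all genes called. Slc7a5 and Slc3a2, the chains of the large neutral amino acid transporter, rose by 0.55 ± 0.09 and 0.52 ± 0.07 (edgeR adjusted p = 0.000878 and 0.000139). Slc7a5 stood at 68.8, 73.0 and 75.8 CPM in control and 93.6, 105 and 121 CPM in dKO libraries. The glycolysis genes Eno1, Ldha and Pgk1 rose as well. Eno1 ran from 1865 to 1954 CPM in control and from 2326 to 2573 CPM in dKO libraries. Ldha ran from 1056 to 1161 and from 1327 to 1496 CPM, and Pgk1 from 138 to 146 and from 176 to 200 CPM. The muscle-type phosphofructokinase Pfkm and the pyruvate kinase Pkm fell, Pfkm by 1.33 (from 36.5 to 38.4 CPM down to 12.4 to 16.7 CPM) and Pkm by 0.77. The list thus holds changes in both directions, also among its glycolysis genes.

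Smaller lists moved in part. Of 12 translation genes 3 rose in ImCD4 (Eef1e1, Eif3b and Iars, by 0.26 to 0.33), and 1 without control replicate 1 or 0 without dKO replicate 2. Of 12 cell cycle targets 3 rose (Mcm7 by 0.34, Cul1 by 0.31 and the kinase Cdk4 by 0.28), and 1 without control replicate 1, control replicate 2 or dKO replicate 2, and 6 with a model term for replicate 3. Of 6 tested genes known to be lowered by Myc 2 rose, Ndrg1 by 0.47 and Gadd45a by 0.53, and 1 fell, the cell cycle inhibitor Cdkn1b by 0.33. Of the calls of these 6 genes, none was left without control replicate 1, and each other omission of 1 ImCD4 library also lost at least 1 of them. These counts in ImCD4 are read against 13.4% of all genes called. Gamma-delta and dividing-cell markers moved in the same libraries at the values given above, and their part in the target lists was not tested.

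In ImCD8 some of the same lists had no calls, while others had a larger share called than the 6.14% of all genes. Of 21 polyamine and nucleotide genes 1 rose and 2 fell. No ribosome biogenesis gene was called (3 of 29 at an unadjusted p under 0.05, DESeq2 and limma-voom 0), and the list median was 0.02. Mthfd2 rose, from 29.5, 29.2 and 27.1 CPM to 45.7, 39.9 and 49.7 CPM (0.66 ± 0.10, edgeR adjusted p = 0.000923), and Prps2 and Ppat fell (-0.40 ± 0.07 and -0.35 ± 0.08). The call of Ppat, which commits phosphoribosyl pyrophosphate to purine synthesis, was lost without control ImCD8 replicate 1 or 2 or dKO ImCD8 replicate 2 (highest adjusted p 0.0719). Of 15 transporter and glycolysis genes 1 rose (none without control ImCD8 replicate 1, and 2 without control ImCD8 replicate 3) and 3 fell, among them Pfkm by 1.11 and Pkm by 0.69. Of 12 translation genes 3 fell, Eif4ebp1, Eif4a1 and Eif4e (-0.66 ± 0.15, -0.30 ± 0.08 and -0.24 ± 0.06), with 0 or 1 left in each omission of 1 ImCD8 library except dKO replicate 3, and 1 with replicate 3 left out of every group. No cell cycle target was called (5 of 12 at an unadjusted p under 0.05, DESeq2 0, limma-voom 1), and none of the genes lowered by Myc (1 of 6 at an unadjusted p under 0.05, DESeq2 and limma-voom 0). The 10 markers of dividing cells had a median of -0.45 in this comparison with none called (1 at an unadjusted p under 0.05, DESeq2 and limma-voom 0), and 5 of them were lower with replicate 3 left out of every group.

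Tested directly, the dKO effect differed between populations for 2 genes of these lists, where 0.433% of all genes tested were called. They were 1 of 21 polyamine and nucleotide genes and 1 of 12 cell cycle targets. None was called of 29 ribosome biogenesis, 15 transporter and glycolysis and 12 translation genes, or of 6 genes lowered by Myc. Mthfd1l held 26.6, 26.9 and 24.4 CPM in control and 33.5, 35.1 and 36.6 CPM in dKO ImCD4, but 95.0, 106 and 96.4 CPM in control and 90.1, 90.1 and 86.9 CPM in dKO ImCD8. It rose in ImCD4, while in ImCD8 the effect of -0.15 ± 0.07 did not pass the test (edgeR adjusted p = 0.256), and the effects differed by 0.59 ± 0.11 (adjusted p = 0.0200). For Mcm7, a subunit of the replicative helicase, the difference was 0.54 ± 0.11 (adjusted p = 0.0327). The call of Mthfd1l was lost in 5 of 20 alternative settings and that of Mcm7 in 10 of 20, with a highest adjusted p of 0.109 and 0.112. Mthfd1l lost it without control ImCD4 replicate 3, dKO ImCD4 replicate 2 or 3, or control ImCD8 replicate 2, and Mcm7 in 9 of the 12 omissions of 1 library. Neither difference was called with replicate 3 left out of every group. For the ribosome biogenesis list the differences had a median of 0.19, 28 of 29 positive, with no gene called (6 at an unadjusted p under 0.05, DESeq2 and limma-voom 0).

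**Figure D4:**
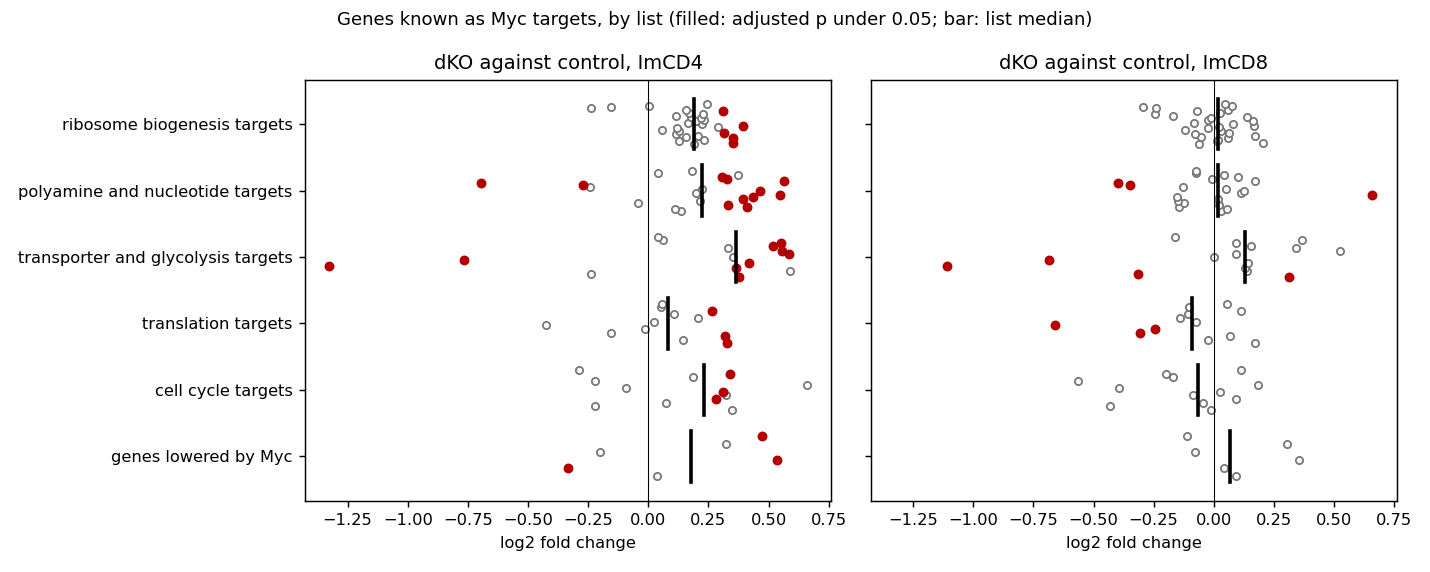
Log2 fold change of dKO against control (x axis) for each tested gene of 6 lists of known Myc targets, in ImCD4 on the left and ImCD8 on the right; filled red points have an edgeR adjusted p under 0.05 and black bars are list medians. The ribosome biogenesis points lie mostly above 0 in ImCD4 (27 of 29) and around 0 in ImCD8, and the far-left points of the transporter and glycolysis list are Pfkm and Pkm in both.

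Between populations, most called genes of the ribosome and nucleotide lists were higher in ImCD8, as Myc was, while the transporter and glycolysis list was mixed. Of 29 ribosome biogenesis genes 19 were higher in ImCD8 than in ImCD4 in control cells and 11 in dKO cells (5 or 6 without dKO ImCD4 replicate 1 or 2 or dKO ImCD8 replicate 2 or 3), with none lower, among them Npm1 (0.70 ± 0.10 and 0.67 ± 0.10), Nop58, Ddx21 and Polr1b. Of 21 polyamine and nucleotide genes 18 were higher in each genotype and none lower, led by Mthfd1l (1.93 ± 0.08 and 1.34 ± 0.08), with Sms higher by 0.78 and 0.58. Of 12 cell cycle targets 7 were higher in each genotype, led by Ccne1 (cyclin E, 3.18 in control and 2.97 in dKO cells), while 1 was lower in control and 2 in dKO cells. Of 15 transporter and glycolysis genes 7 were higher and 4 lower in control cells, and 4 higher and 6 lower in dKO cells (3 lower with replicate 3 left out of every group). Of 12 translation genes 7 were higher and none lower in control cells, and 3 higher and 2 lower in dKO cells, with 1 higher without dKO ImCD4 replicate 1 or 3 or dKO ImCD8 replicate 2. Of 6 tested genes lowered by Myc, 5 were lower in ImCD8 in control and 4 in dKO cells, Gadd45a by -1.25 ± 0.18 and -1.44 ± 0.17. Since 45.3% and 43.7% of all genes were called between the populations, these counts are set against that share. The partner Zbtb17 (Miz1), through which Myc represses genes, was lower in ImCD8 (-0.58 ± 0.08 and -0.38 ± 0.08), as were Gsk3b (-0.41 ± 0.07 and -0.28 ± 0.07) and Trim32 (-0.39 ± 0.09 and -0.50 ± 0.10). Of the 13 genes of the turnover list 4 were higher and 3 lower in control cells, and 3 higher and 4 lower in dKO cells. Of the 14 cofactors 1 was higher and 5 lower in control cells, and 1 higher and 6 lower in dKO cells. The 10 markers of dividing cells were all higher in ImCD8, as given above. Of the 4 tested gamma-delta and innate-like markers 2 were higher and 1 lower in ImCD8 in control cells, and 1 higher and 1 lower in dKO cells. The called genes differed in direction: Il2rb stood at 32.5 to 73.0 CPM in ImCD4 and 404 to 491 CPM in ImCD8, and Sox13 at 18.8 to 285 CPM and 0.896 to 2.50 CPM. The part of these markers in the results was not tested.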

How the data were processed

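RNA-seq of 12 libraries of sorted thymocytes was analysed from the read counts per gene that the authors deposited. Per the submitters' processing notes, reads were trimmed with cutadapt 1.18, aligned to mm10 with STAR 2.6.1 and counted with HTSeq; their annotation and strandedness were not given in the sources used here. Per the labels' protocols, RNA came from the RNeasy Plus Micro kit and libraries from the Clontech SMARTer Low Input kit. The 5 summary rows were left out of library sizes and tests. Counts were fitted in R 4.3.3 with edgeR 4.0.16 (filterByExpr with a minimum count of 10, TMM, robust quasi-likelihood, 4 group means, all 12 libraries, two-sided), and p-values were adjusted over 13383 genes at 0.05. The procedure was tested on simulated data. Exon lengths and positions are from GENCODE vM21. A longer G-rich word was also searched for in the promoters and matched none of the members. Correlations used log2 CPM with a prior count of 2. Libraries within a group differed by more than sampling noise (the lowest ratio of chi-square to degrees of freedom was 3.84).

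The members and gene lists were chosen with earlier results of these data known. All 8 members are named; of each list up to 4 called genes per contrast with the smallest p, and for each member the 3 genes with the highest correlation. Genes singled out beyond this rule were chosen after their values were seen. Tried as alternatives were DESeq2 1.42.0, limma-voom (limma 3.58.1), scaling by RLE or by library size, other filters, fits restricted to the groups compared, and omission of single libraries. Omission of replicate 3 from every group, or a model term for it, was chosen after seeing the data. Not every marker list is reported here.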

Additional observations from a re-analysis of the deposited data

How the results depend on the processing

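No paired analysis was possible because the labels give no replicate numbers; those used here follow accession order and only name libraries. Each of the 8 members was recomputed in 5 comparisons under the alternatives. Of the alternative values 586 kept their direction and side of the threshold, 26 changed sign, 11 newly passed and 7 no longer passed; the cause was not tested. Of the 8 members, 0 or 1 was called between genotypes in ImCD4 when single libraries were left out. Without dKO ImCD4 replicate 3 the 1 member called was Mxi1, and Myc was not called. In ImCD8 1 was called with no filter, with replicate 3 left out of every group, and with a model term for it, and for the difference between populations 1 was called in the last 2 of these settings. No value that changed sign had passed the test. With single libraries left out, the dKO effect on Mnt in ImCD8 ran from -0.084 to 0.018. The differences of the dKO effect ran from -0.56 to 0.55 for Mycn, from -0.12 to 0.055 for Mxd1, from -0.17 to 0.030 for Mxd4, from -0.058 to 0.22 for Mxi1 and from -0.094 to 0.019 for Mnt. ImCD8 against ImCD4 ran from -0.018 to 0.18 for Max and from -0.11 to 0.087 for Mxd4 in control, and from -0.0082 to 0.092 for Mxd4 in dKO cells. The difference for Mycn was 0.043 with limma-voom and 1.14 with replicate 3 left out of every group, where Max differed between control populations by -0.044. With library size as the only scaling, ImCD8 against ImCD4 gave -0.00086 for Mnt in control and -0.0022 for Mxd4 in dKO cells. Of all genes called in ImCD4, 972 of 1797 were higher in dKO, and 757 of 1610 with library size as the only scaling. Depth limits Mycn (at most 19 counts a library) and Mxd3 in ImCD4 (at most 15 counts), for which changes of several fold lie within the intervals.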
